A study of Mus musculus with 14 samples.

Results

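Interleukins and their receptors were described in liver RNA of mice with and without deletion of Tet2, a DNA demethylation enzyme, in blood cells. The members were the protein-coding genes whose symbol begins with Il followed by a number. The rule used the symbol alone and no measured value, and it took 82 genes of the 51912 gene rows in the files, all of them among 21793 protein-coding genes. They comprise 37 ligands, 36 signalling receptor chains, 6 antagonists, decoy receptors and binding proteins, and 3 other proteins. Liver RNA was sequenced from 14 untreated mice, each 20 weeks old, with tissue taken from the left lobe. All of them carried floxed Tet2 alleles (Tet2fl/fl). The AIH group comprised 5 cre-positive (vav cre+) animals with spontaneous autoimmune hepatitis, a disease in which the immune system attacks the liver. A second group comprised 5 animals of the same genotype without symptoms, called asymptomatic here. The control group comprised 4 littermates without cre (Tet2fl/fl cre-), which the labels call healthy and WT. The Vav promoter drives the recombinase in blood-forming cells and their progeny, so hepatocytes keep Tet2. The samples are labelled singly and were taken as separate animals, so p-values measure the spread between these samples. The study's title places the deletion in the setting of bacterial translocation and T cell hepatitis.

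Interleukins are secreted proteins through which leukocytes and tissue cells signal to each other over short distances. Most bind a private receptor chain that pairs with a chain shared by a whole family, such as the common gamma chain Il2rg, the IL-6 family chain Il6st (gp130) or the IL-1 family chain Il1rap. Signals run through Janus kinases and STAT factors, or through Myd88 and NF-kB for the IL-1 family, and secreted antagonists, binding proteins and decoy receptors hold ligands back. In liver, IL-6 is known as the main inducer of acute-phase proteins in hepatocytes, IL-33 as an alarm signal released by damaged cells, and IL-10 as a brake on macrophages.

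Promoter sequence was printed for 5 members that the results turn on and that differ in the motifs they hold. The windows are the 250 bases upstream of the RefSeq start (GRCm38.p6), 5′ to 3′ on the gene's strand, with motif matches in capitals. They are chr1:40085843-40086092 (plus strand) for the decoy receptor Il1r2, chr15:9529877-9530126 (minus strand) for the IL-7 receptor chain Il7r, chr2:11642542-11642791 (plus strand) for the IL-2 receptor alpha chain Il2ra, chr5:30012864-30013113 (plus strand) for Il6 and chr2:129371140-129371389 (minus strand) for Il1b.
Il1r2: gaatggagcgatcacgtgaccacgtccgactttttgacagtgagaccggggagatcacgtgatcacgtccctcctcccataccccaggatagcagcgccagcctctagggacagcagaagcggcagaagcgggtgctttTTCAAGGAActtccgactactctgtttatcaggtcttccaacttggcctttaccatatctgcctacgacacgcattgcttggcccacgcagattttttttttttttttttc
Il7r: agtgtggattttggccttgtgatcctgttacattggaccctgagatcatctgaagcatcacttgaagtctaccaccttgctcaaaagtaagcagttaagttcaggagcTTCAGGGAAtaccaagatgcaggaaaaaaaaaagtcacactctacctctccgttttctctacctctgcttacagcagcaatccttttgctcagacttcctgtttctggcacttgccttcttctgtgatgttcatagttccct
Il2ra: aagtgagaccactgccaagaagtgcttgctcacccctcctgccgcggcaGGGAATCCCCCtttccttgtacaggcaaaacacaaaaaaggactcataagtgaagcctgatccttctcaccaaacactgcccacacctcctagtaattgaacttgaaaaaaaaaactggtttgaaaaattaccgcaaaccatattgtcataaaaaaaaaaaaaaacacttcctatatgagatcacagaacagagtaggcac
Il6: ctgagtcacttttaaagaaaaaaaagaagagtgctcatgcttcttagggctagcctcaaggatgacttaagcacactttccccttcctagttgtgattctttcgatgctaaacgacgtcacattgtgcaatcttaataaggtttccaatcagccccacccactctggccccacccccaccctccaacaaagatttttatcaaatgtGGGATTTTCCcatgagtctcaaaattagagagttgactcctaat
Il1b: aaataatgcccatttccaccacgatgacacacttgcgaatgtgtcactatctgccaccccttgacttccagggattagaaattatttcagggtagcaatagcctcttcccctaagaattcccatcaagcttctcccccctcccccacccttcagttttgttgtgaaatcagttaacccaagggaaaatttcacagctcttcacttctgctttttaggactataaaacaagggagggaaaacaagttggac
The capitals mark the STAT motif TTCNNNGAA in Il1r2, 111 bases before the start, and in Il7r, 142 bases before it. In Il2ra they mark 2 overlapping matches to the NF-kB motif, 201 and 200 bases before the start, and in Il6 they mark 1 NF-kB match 44 bases before it. The Il1b window held no match to any of the motifs searched. Of the members, 65 matched the RefSeq promoter table, with 80 windows. The STAT motif occurred on either strand in 8 of the 80 windows (10%), against 7.02% of all 32851 windows. The NF-kB motif occurred in 6 (7.5%), against 7.25% of all windows, and the interferon response motif (GAAANN followed by GAAA) in 2 (2.5%), against 2.98% of all windows. A match is a run of letters and not a measured binding site.

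Gene totals ran from 17347056 to 18156913 counts per library in AIH, 15968380 to 18031810 counts per library in asymptomatic and 17691897 to 18915729 counts per library in control livers. Tet2 had 7.86, 7.33, 14.2, 7.54 and 15.4 CPM (counts relative to the TMM-scaled library size) in AIH, 8.06, 9.23, 4.77, 5.49 and 6.52 in asymptomatic and 8.53, 12, 11.5 and 10.8 in control livers. It passed no test, and AIH 3 and AIH 5 were the highest of all livers. Which cells hold this RNA was not measured. Sex is not in the labels. By Xist and Y-linked counts, AIH livers were 4 female and 1 male (AIH 4), asymptomatic livers 5 male, and control livers 2 female (control 2 and 3) and 2 male, so sex and group are entangled. AIH libraries carry the numbers 11 to 15 and all others 1 to 10, an order that cannot be told apart from AIH. Hepatocyte markers were abundant in every liver, and all markers of T cells (8 of 8), B cells (5 of 5), neutrophils (8 of 8) and monocytes and macrophages (8 of 8) were higher in AIH in both of its comparisons. In bulk tissue, fewer cells of a type and less RNA per cell cannot be told apart.

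Of the 82 members, 42 had enough counts to be tested, 21 had counts in at least 1 library but too few, and 19 had none in any library. Against control, 24 of the 42 rose in AIH livers and none fell, where 15.6% of all 14638 genes tested rose and 6.08% fell, 21.7% in either direction (edgeR quasi-likelihood test, Benjamini-Hochberg adjusted p under 0.05). Against asymptomatic livers, 26 rose and 2 fell, where 19.1% of all genes rose and 10.7% fell, 29.8% in either direction. In asymptomatic livers no member passed the test against control, nor did any gene (0% called) in edgeR. Calls over all genes numbered 118 in DESeq2 (0.806%) and 1299 in limma-voom (8.87%). Among the 42, 9 passed the count filter only through the AIH libraries (Il10, Il18r1, Il1r2, Il1rl2, Il20rb, Il21r, Il2ra, Il7 and Il9r), so a count over them supports nothing. Of these 9, 7 were called against control and 8 against asymptomatic, and Il20rb was called in neither. Of the other 33, 17 rose against control, where 12.7% of the 13533 genes that passed the filter without the AIH libraries rose and 6.55% fell. Against asymptomatic, 18 of the 33 rose and 2 fell, where 15.7% of those genes rose and 11.5% fell. The median log2 fold change of the 33 was 1.1 for AIH against control and 1.06 for AIH against asymptomatic, beside −0.05 and −0.08 over the 13533 genes. Both comparisons share the AIH libraries, so their values are given side by side. AIH and control livers did not overlap for 18 members that were higher, against 13.2% of all genes, and for 1 that was lower (Il17rc), against 6.65%. AIH and asymptomatic livers did not overlap for 18 that were higher, against 12.3% of genes, and for 1 that was lower (Il15ra), against 4.71%. In each comparison, 4 of the 18 higher members passed the filter only through the AIH libraries, and the other 14 are among the 33.

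**Figure D1:**
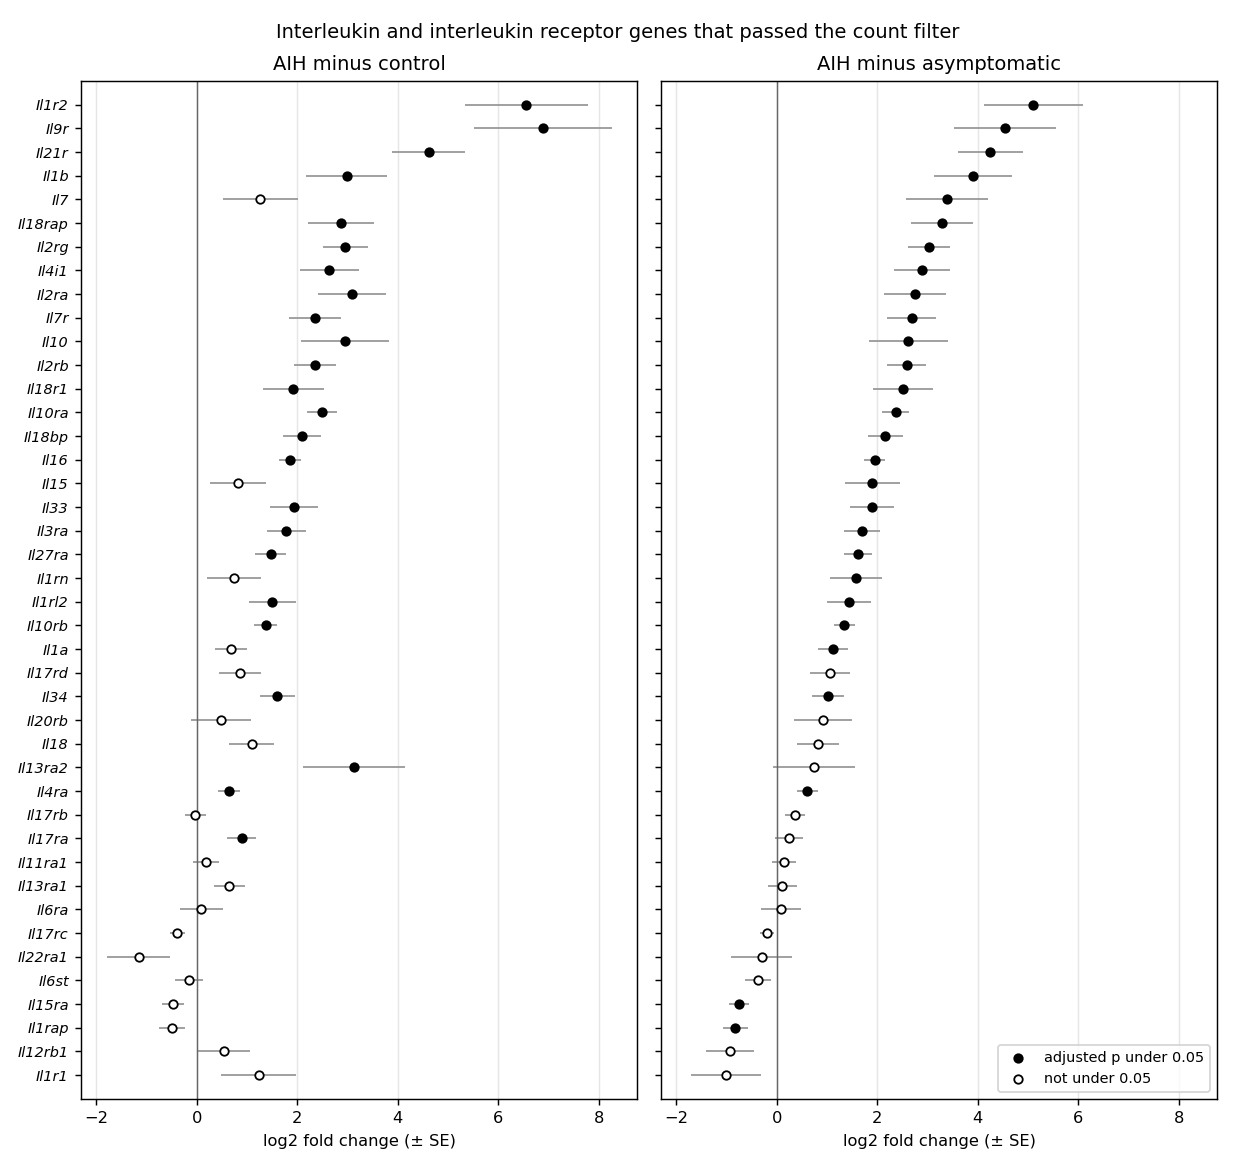
Log2 fold change (x axis) of each tested member in AIH against asymptomatic and AIH against control, with bars of 1 standard error from the edgeR fit, and filled points for members past the adjusted threshold. All filled points against control lie right of 0, and against asymptomatic Il15ra and Il1rap lie left of it.

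By role, and among members that passed the filter without the AIH libraries, 6 of 7 ligands rose against asymptomatic and 4 against control. Of 22 such receptor chains, 9 rose and 2 fell against asymptomatic, and 10 rose against control. Of 3 such antagonists, decoys and binding proteins, 2 rose against each. Among all genes passing that filter, 15.7% rose and 11.5% fell against asymptomatic, and 12.7% rose and 6.55% fell against control. With sex as a term, Il16 and Il33 of the ligands were still called against asymptomatic, while Il15, Il1a, Il1b and Il34 were not. Among members outside these roles, the enzyme Il4i1 was tested and rose in both comparisons. In RPKM (CPM per kilobase of exon), Il6st had the highest mean level over all livers at 25.5 RPKM, followed by Il13ra1 at 20.03, Il18bp at 13.3, Il1r1 at 12.8 and Il1rap at 12.

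The IL-1 family ligands were led by Il1b, the inflammasome-processed cytokine of myeloid cells. Il1b had 8.73, 129, 8.38, 13.8 and 34.8 CPM in AIH livers, 2.6, 3.17, 1.88, 3.23 and 2.13 CPM in asymptomatic livers and 2.45, 3.45, 11.4 and 2.34 CPM in control livers. AIH 2 was far above the other AIH livers, and AIH 1 and AIH 3 lay below control 3. Il1b had log2 fold changes of 2.99 ± 0.80 against control (adjusted p = 0.0159) and 3.9 ± 0.78 against asymptomatic (adjusted p = 0.0019), where ± gives 1 standard error. Without AIH 2 the change against control was 1.76 (adjusted p = 0.044) and that against asymptomatic 2.67, and without control 3 it was 3.82 against control. Leaving out control 1, 2 or 4 ended the call against control, with an adjusted p of 0.0523, 0.0504 and 0.0528. Il33, the alarm cytokine read by Il1rl1, had 9.35, 3.93, 4.89, 16.3 and 5.2 CPM in AIH livers, 1.43, 1.53, 2.57, 1.49 and 3.66 CPM in asymptomatic livers and 1.75, 1.3, 3.59 and 1.62 CPM in control livers. All AIH livers exceeded all others, most of all AIH 4. Il33 had log2 fold changes of 1.94 ± 0.47 against control (adjusted p = 0.00904) and 1.89 ± 0.44 against asymptomatic (adjusted p = 0.00493). Il18, a cytokine that drives interferon gamma in T and natural killer cells, had 10.7, 32.5, 10.9, 11.3 and 19.5 CPM in AIH livers, 9.36, 6.05, 16.2, 9.24 and 7.38 CPM in asymptomatic livers and 11.8, 3.78, 12.2 and 3.96 CPM in control livers. The groups overlapped, and Il18 passed neither test, with 1.1 ± 0.45 against control (adjusted p = 0.096) and 0.82 ± 0.41 against asymptomatic (adjusted p = 0.15). The limma-voom fit called it against control, at 1.24 (adjusted p = 0.0271). Il1a, chosen after its values were seen, ranged over 5.03 to 11.7 CPM in AIH, 3.01 to 4.91 CPM in asymptomatic and 2.85 to 9.03 CPM in control livers, with a log2 change of 1.13 ± 0.30 against asymptomatic (adjusted p = 0.0116). Against control Il1a did not pass, but did without control 3, at 1.08 (adjusted p = 0.0198), and in limma-voom it missed the threshold against asymptomatic (adjusted p = 0.0521).

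Il1rn, the secreted receptor antagonist of IL-1, had 13.2, 24, 12.5, 5.75 and 14 CPM in AIH livers, 1.36, 6.23, 5.02, 5.17 and 5.39 CPM in asymptomatic livers and 1.81, 15.1, 11.2 and 5.19 CPM in control livers. All AIH livers but AIH 4 were above all asymptomatic livers, while control 2 and control 3 lay within the AIH range. Il1rn had log2 fold changes of 0.74 ± 0.53 against control (adjusted p = 0.355) and 1.58 ± 0.51 against asymptomatic (adjusted p = 0.0307). The call against asymptomatic ended without AIH 2 (adjusted p = 0.0826) and without asymptomatic 1, 4 or 5 (adjusted p = 0.0659, 0.0561 and 0.0527). With sex as a term it also ended, at a log2 change of 0.12 (adjusted p = 0.905). AIH 4 is the male AIH liver, and control 2 and 3 are the female controls. Il18bp, the secreted protein that binds and neutralizes IL-18, had 65.3, 153, 76.9, 30.1 and 72.6 CPM in AIH livers, 14.3, 17.3, 22.6, 19 and 15.7 CPM in asymptomatic livers and 15.1, 17.4, 29.3 and 13 CPM in control livers. Each AIH liver exceeded each control and asymptomatic liver, with AIH 2 highest and AIH 4 just above control 3. Il18bp had log2 fold changes of 2.09 ± 0.38 against control (adjusted p = 0.00126) and 2.16 ± 0.35 against asymptomatic (adjusted p = 0.000389). Il1r2, the decoy receptor that binds IL-1 without signalling, had 10.9, 3.01, 9.43, 6.42 and 0.101 CPM in AIH livers, 0, 0.176, 0, 0.129 and 0.532 CPM in asymptomatic livers and 0.0584, 0.113, 0.0544 and 0 CPM in control livers. It was near 0 outside AIH, and AIH 5 alone among AIH livers stayed as low as the other groups. Il1r2 had log2 fold changes of 6.56 ± 1.22 against control (adjusted p = 0.00165) and 5.11 ± 0.99 against asymptomatic (adjusted p = 0.00154). The limma-voom fit did not call it against control, at 5.7 (adjusted p = 0.0663). Since control held only 4 counts of Il1r2 in all, the pooled ratio of counts of AIH to control is given with its counting interval, 105 (95% interval 40.7 to 386), and 80.3 without AIH 1. Without asymptomatic 5 its change against asymptomatic was 6.14, and without AIH 1, 2, 3 or 4 it fell below the count filter, as it did against asymptomatic in a fit of those 2 groups alone.

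**Figure D2:**
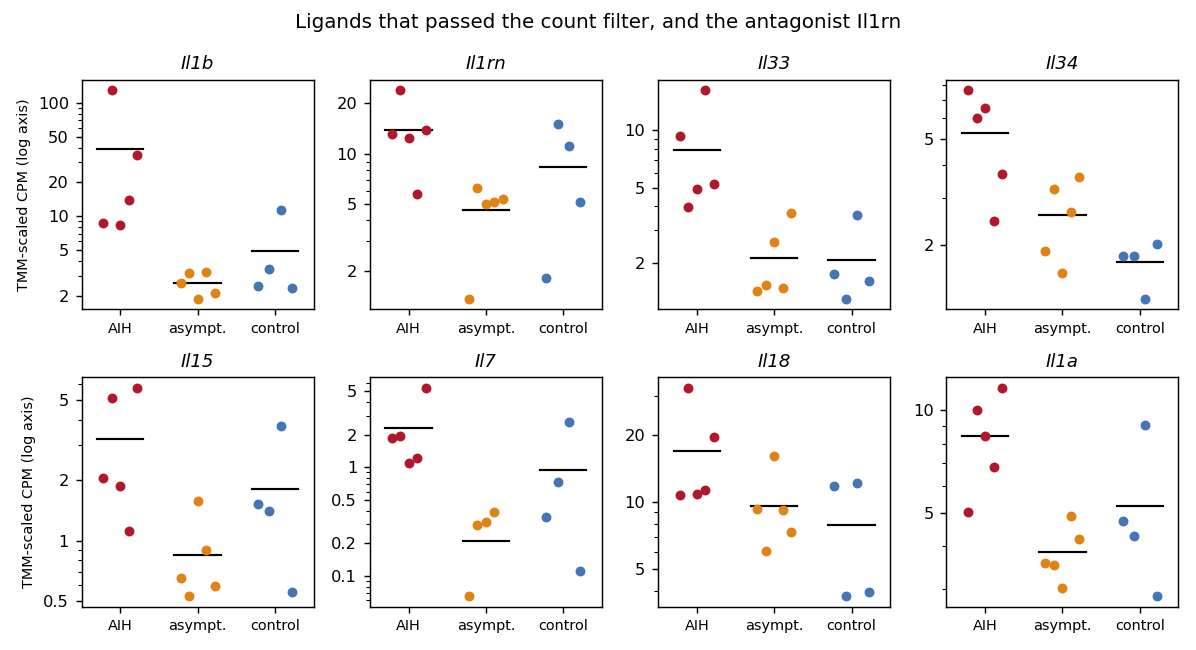
TMM-scaled CPM (y axis, log scale) of ligands and the antagonist Il1rn in each AIH, asymptomatic and control liver, 1 point per animal with the group mean as a line. Il7 in asymptomatic 5 was 0 and cannot be shown on a log scale. AIH livers lie above all others for Il33, while groups overlap for Il18 and Il15.

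A row of 6 IL-1 family receptor genes lies on chromosome 1 (GRCm38, GENCODE M21), from Il1r2 at chr1:40074079-40125231 and Il1r1 at chr1:40225080-40317257 through Il1rl2, Il1rl1 and Il18r1 to Il18rap at chr1:40515362-40551705. Il18rap, the accessory chain of the IL-18 receptor, had 3.5, 4.08, 10.6, 1.01 and 1.06 CPM in AIH livers, 0.39, 0.235, 0.439, 0.646 and 0.332 CPM in asymptomatic livers and 0.234, 0.621, 0.762 and 0.558 CPM in control livers. All AIH livers lay above all others, AIH 3 by the widest margin. Il18rap had log2 fold changes of 2.88 ± 0.66 against control (adjusted p = 0.00607) and 3.29 ± 0.63 against asymptomatic (adjusted p = 0.00139), and without AIH 3 these were 2.12 and 2.54. Il18r1, its ligand-binding partner, and Il1rl2, the IL-36 receptor, also rose in both comparisons and were chosen after their values were seen. Il18r1 ranged over 0.807 to 3.46 CPM in AIH, 0.065 to 0.705 CPM in asymptomatic and 0.234 to 0.678 CPM in control livers, and Il1rl2 over 0.252 to 2.15 CPM in AIH, 0.332 to 0.647 CPM in asymptomatic and 0.35 to 0.565 CPM in control livers. Il18r1 had log2 fold changes of 1.92 ± 0.60 against control (adjusted p = 0.0342) and 2.51 ± 0.59 against asymptomatic (adjusted p = 0.00551), and Il1rl2 had log2 fold changes of 1.51 ± 0.47 against control (adjusted p = 0.0331) and 1.44 ± 0.44 against asymptomatic (adjusted p = 0.0231). Against control, the Il18r1 call ended without AIH 1 or 4 or control 1, 3 or 4 (adjusted p up to 0.0982) and without the count filter (adjusted p = 0.0503), and the Il1rl2 call without AIH 1, 3 or 4 or any 1 control (adjusted p up to 0.0877). Without asymptomatic 2 the change of Il18r1 against asymptomatic was 3.19. Against asymptomatic, that of Il1rl2 ended without AIH 3 or asymptomatic 1 or 5 (adjusted p = 0.0664, 0.0531 and 0.0551). Il1r1, the signalling IL-1 receptor, had 101, 47.8, 131, 25.5 and 34.7 CPM in AIH livers, 42.8, 42.3, 19.5, 260.1 and 321 CPM in asymptomatic livers and 17.5, 47.9, 20.4 and 29.9 CPM in control livers. Asymptomatic 4 and 5 were the highest of all livers, above every AIH liver, and Il1r1 passed neither AIH test. Its log2 fold changes were 1.23 ± 0.75 against control (adjusted p = 0.267) and −1.01 ± 0.69 against asymptomatic (adjusted p = 0.287). Il1rap, the chain that IL-1, IL-33 and IL-36 receptors share, had 98.9, 68.7, 74.3, 153 and 95 CPM in AIH livers, 187, 197, 177, 151 and 157 CPM in asymptomatic livers and 186, 97.8, 90.5 and 178 CPM in control livers. It was lower in AIH than in asymptomatic livers, with −0.83 ± 0.25 (adjusted p = 0.0214), and −0.49 ± 0.26 against control (adjusted p = 0.196). Within controls the male livers, control 1 and 4, were high and the female livers, control 2 and 3, low, and AIH 4, the male AIH liver, was the highest of its group. With sex as a term the change against asymptomatic was −0.14 and no longer passed the threshold. It also missed it without AIH 2 (adjusted p = 0.0544) or AIH 3 (adjusted p = 0.0506), and with scaling by library totals alone. Against control it passed without AIH 4, at −0.71 (adjusted p = 0.0441).

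The common gamma chain family, through which lymphocytes grow and survive, was counted together with Il13ra1 and Il13ra2. These IL-13 receptors do not pair with Il2rg. The list held 12 tested members. Of the 8 that passed the filter without the AIH libraries, 5 rose against each group and Il15ra fell against asymptomatic. Among all genes passing that filter, 15.7% rose against asymptomatic and 12.7% against control. Il13ra2 is among the 5 that rose against control. Il21r, Il2ra, Il7 and Il9r passed the filter only through AIH. Il2rg, the shared chain itself, had 16.5, 27.4, 6.75, 16.9 and 9.08 CPM in AIH livers, 0.91, 2.06, 2.26, 2.0 and 2.13 CPM in asymptomatic livers and 1.93, 1.41, 3.43 and 1.116 CPM in control livers. Every AIH liver was above every other liver. Il2rg had log2 fold changes of 2.96 ± 0.45 against control (adjusted p = 0.000355) and 3.03 ± 0.41 against asymptomatic (adjusted p = 0.000106). Il2rb, the beta chain of the IL-2 and IL-15 receptors, had 18.8, 9.85, 8.09, 18.1 and 5.9 CPM in AIH livers, 1.3, 2.35, 2.82, 1.74 and 1.86 CPM in asymptomatic livers and 0.993, 2.82, 3.65 and 1.95 CPM in control livers. AIH 1 and AIH 4 were the highest, and AIH 5, the lowest AIH liver, was still above all others. Il2rb had log2 fold changes of 2.36 ± 0.42 against control (adjusted p = 0.0012) and 2.59 ± 0.39 against asymptomatic (adjusted p = 0.000247). Il2ra, the high-affinity IL-2 receptor chain of activated and regulatory T cells, had 0.911, 1.46, 0.873, 2.51 and 0.454 CPM in AIH livers, 0.26, 0.118, 0.0627, 0.194 and 0.266 CPM in asymptomatic livers and 0, 0.0565, 0.327 and 0.167 CPM in control livers. It was low everywhere, with AIH 4 highest. Il2ra had log2 fold changes of 3.09 ± 0.68 against control (adjusted p = 0.00507) and 2.75 ± 0.62 against asymptomatic (adjusted p = 0.00426), without control 3 the change against control was 3.91, and without AIH 1, 2, 3 or 4 Il2ra fell below the count filter.

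Il21r, the receptor for the T helper cytokine IL-21, had 16.4, 15.7, 2.73, 19.3 and 10.2 CPM in AIH livers, 0.26, 2.0, 0.188, 0.452 and 0.399 CPM in asymptomatic livers and 0.467, 0.226, 0.871 and 0.502 CPM in control livers. AIH livers lay above all others, AIH 3 lowest among them, and asymptomatic 2 stood out in its own group. Il21r had log2 fold changes of 4.62 ± 0.72 against control (adjusted p = 0.000455) and 4.25 ± 0.64 against asymptomatic (adjusted p = 0.000238), and 5.28 against asymptomatic without asymptomatic 2. Il7r, the IL-7 receptor chain of naive and memory T cells, had 4.12, 1.65, 5.59, 5.92 and 2.88 CPM in AIH livers, 0.455, 1.117, 0.314, 0.258 and 0.931 CPM in asymptomatic livers and 0.35, 0.904, 1.31 and 0.558 CPM in control livers. AIH livers again lay above all others. Il7r had log2 fold changes of 2.36 ± 0.51 against control (adjusted p = 0.00468) and 2.69 ± 0.49 against asymptomatic (adjusted p = 0.000974). Il9r, the receptor for the T and mast cell cytokine IL-9, had 6.42, 1.41, 0.582, 11.4 and 1.21 CPM in AIH livers, 0.065, 0.705, 0.0627, 0 and 0 CPM in asymptomatic livers and 0.0584, 0.0565, 0 and 0 CPM in control livers. AIH 1 and AIH 4 held most of its counts, and AIH 3 lay below asymptomatic 2. Il9r had log2 fold changes of 6.9 ± 1.37 against control (adjusted p = 0.00254) and 4.55 ± 1.01 against asymptomatic (adjusted p = 0.00389). With only 2 counts in control, its pooled ratio of counts of AIH to control was 148 (95% interval 40.7 to 1226), and 89.3 without AIH 4. Without AIH 4 its log2 change was 6.11 against control. Against asymptomatic, it was 3.75 without AIH 4 and 6.74 without asymptomatic 2.

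**Figure D3:**
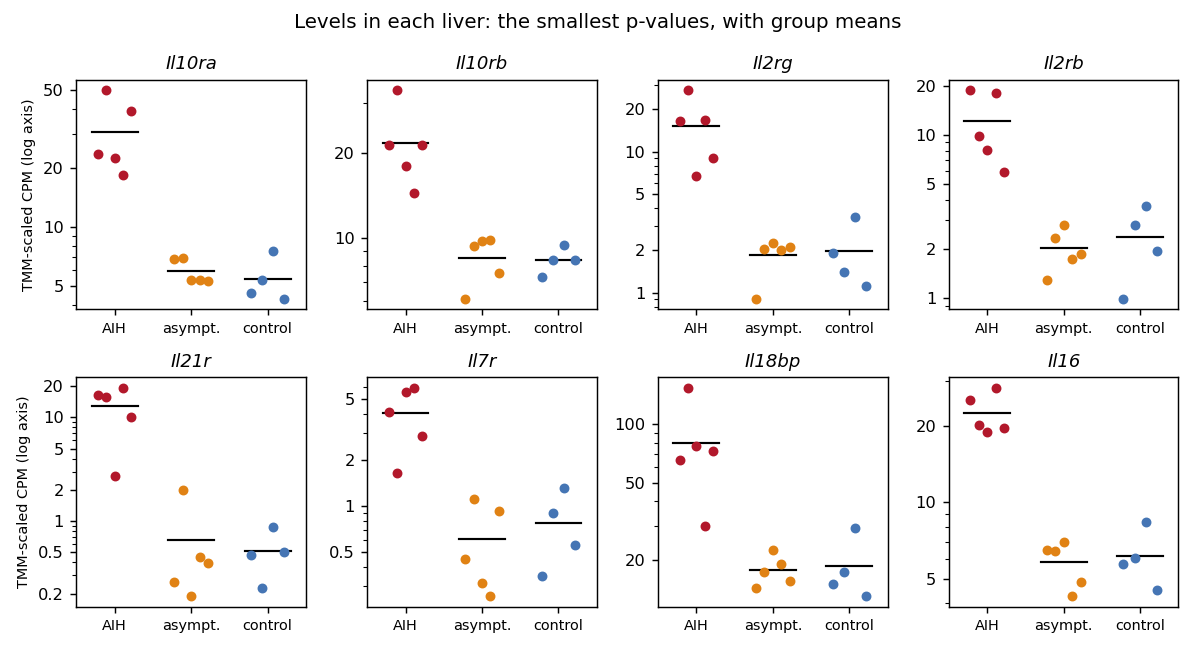
TMM-scaled CPM (y axis, log scale) of receptor chains and the binding protein Il18bp in each liver, 1 point per animal with the group mean as a line, AIH left, asymptomatic in the middle and control right. AIH livers lie above all others for Il2rg, Il10ra and Il7r, and the spread within AIH is wide for Il21r.

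Il4ra, the chain shared by the IL-4 and IL-13 receptors, had 55.2, 56.7, 81.4, 51.4 and 52.1 CPM in AIH livers, 36.5, 51.4, 33.9, 35.3 and 37.3 CPM in asymptomatic livers and 27.3, 48.6, 27.4 and 48.3 CPM in control livers. AIH 3 was highest, and the lowest AIH liver lay barely above asymptomatic 2 and above control 2 and 4. Against control it was the member just inside the threshold, with log2 changes of 0.65 ± 0.22 against control (adjusted p = 0.0452) and 0.61 ± 0.20 against asymptomatic (adjusted p = 0.0349). Leaving out AIH 1, 2 or 3 or control 1 or 3 ended the call against control (adjusted p up to 0.145), and leaving out AIH 3 or asymptomatic 1, 3, 4 or 5 that against asymptomatic (adjusted p up to 0.0956). Il13ra1, its partner, had 86.9, 81.3, 93.3, 63.2 and 102 CPM in AIH livers, 54, 38, 67.2, 103 and 134 CPM in asymptomatic livers and 48.5, 61.6, 70.5 and 37.7 CPM in control livers. Asymptomatic livers spanned a wider range than AIH livers, with asymptomatic 4 and 5 again highest in their group. Il13ra1 passed neither test, at 0.65 ± 0.31 against control (adjusted p = 0.156) and 0.11 ± 0.29 against asymptomatic (adjusted p = 0.799). Il13ra2, a decoy receptor for IL-13, had 0.192, 6.84, 3.14, 0.559 and 1.72 CPM in AIH livers, 1.43, 0.411, 0.878, 3.23 and 1.53 CPM in asymptomatic livers and 0, 0.395, 0.653 and 0.0558 CPM in control livers. AIH 2 was highest, AIH 1 and AIH 4 lay within the control range, and Il13ra2 rose against control and did not pass against asymptomatic, at 3.13 ± 1.02 against control (adjusted p = 0.0404) and 0.74 ± 0.82 against asymptomatic (adjusted p = 0.524). That call ended without AIH 2 (log2 change 2.31, adjusted p = 0.122), without AIH 3 (adjusted p = 0.0708) and without control 1, 2 or 4 (adjusted p = 0.097, 0.0759 and 0.107), and the change was 3.98 without control 3. Il15ra, which presents IL-15 to neighbouring cells, had 21.9, 18.9, 15.8, 9.05 and 15.8 CPM in AIH livers, 32.7, 26.2, 23.9, 27.7 and 26.5 CPM in asymptomatic livers and 17.9, 24.1, 29.1 and 19.3 CPM in control livers. It was the member that lay lower in every AIH liver than in every asymptomatic liver, at −0.75 ± 0.21 (adjusted p = 0.0144), and it stood at −0.47 ± 0.22 against control (adjusted p = 0.143). With scaling by library totals alone the call against asymptomatic ended, at −0.53.

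The gamma chain ligands were low in all groups. Il15, which sustains natural killer and memory CD8 T cells, had 2.06, 5.14, 1.86, 1.117 and 5.75 CPM in AIH livers, 0.65, 0.529, 1.57, 0.904 and 0.598 CPM in asymptomatic livers and 1.52, 1.41, 3.7 and 0.558 CPM in control livers. AIH 2 and AIH 5 were the highest, and control livers spanned most of the AIH range. Il15 had log2 fold changes of 0.83 ± 0.56 against control (adjusted p = 0.32) and 1.9 ± 0.55 against asymptomatic (adjusted p = 0.0177). Il7, which keeps T cells alive, had 1.87, 1.94, 1.11, 1.23 and 5.4 CPM in AIH livers, 0.065, 0.294, 0.314, 0.387 and 0 CPM in asymptomatic livers and 0.35, 0.734, 2.61 and 0.112 CPM in control livers. AIH livers lay above all asymptomatic livers, AIH 5 far above the rest, and control 3 lay within the AIH range. Il7 had log2 fold changes of 1.27 ± 0.75 against control (adjusted p = 0.255) and 3.39 ± 0.82 against asymptomatic (adjusted p = 0.00661), and passed against control without control 3, at 2.51 (adjusted p = 0.0373). Il21, made by helper T cells, had 27, 4, 1, 41 and 0 counts in AIH livers, 0, 1, 0, 0 and 0 in asymptomatic livers and 0, 0, 0 and 0 in control livers. Its counts came mostly from AIH 1 and AIH 4. Against control, where it had no count, Il21 was at least 18-fold higher in AIH over a floor of 3 counts per group, and at least 9.67-fold without AIH 4. Il2, the T cell growth factor, had 5, 3, 1, 5 and 5 counts in AIH livers, 3, 1, 1, 4 and 0 in asymptomatic livers and 2, 0, 2 and 2 in control livers, too few to test and spread over all groups. Il4, the type 2 helper cytokine, had 0, 4, 15, 1 and 0 counts in AIH livers, 0, 0, 1, 0 and 0 in asymptomatic livers and 1, 2, 0 and 0 in control livers. AIH 3 held most of the Il4 counts. Il13 had no count in any liver, nor had Il9.

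Both chains of the IL-10 receptor rose, and of the 4 tested receptor chains in the IL-10 family Il20rb and Il22ra1 did not pass. Il10ra, the ligand-binding chain on leukocytes, had 23.6, 50.2, 22.5, 18.5 and 39.2 CPM in AIH livers, 6.82, 6.94, 5.33, 5.36 and 5.32 CPM in asymptomatic livers and 4.61, 5.37, 7.51 and 4.3 CPM in control livers. The lowest AIH liver was well above the highest of the others. Il10ra had log2 fold changes of 2.5 ± 0.30 against control (adjusted p = 5.29e-05) and 2.37 ± 0.27 against asymptomatic (adjusted p = 2.54e-05). Il10rb, shared with the IL-22 and interferon lambda receptors, had 21.2, 33.3, 18, 14.5 and 21.4 CPM in AIH livers, 6.11, 9.35, 9.78, 9.82 and 7.51 CPM in asymptomatic livers and 7.3, 8.36, 9.42 and 8.37 CPM in control livers. AIH livers lay above all others. Il10rb had log2 fold changes of 1.38 ± 0.23 against control (adjusted p = 0.000714) and 1.35 ± 0.21 against asymptomatic (adjusted p = 0.000324). Il10, the anti-inflammatory ligand, had 0.527, 2.04, 0.64, 0.0559 and 0.757 CPM in AIH livers, 0, 0.235, 0.188, 0.194 and 0 CPM in asymptomatic livers and 0.117, 0.0565, 0.163 and 0.0558 CPM in control livers. AIH 2 was highest and AIH 4 was as low as the other groups. Il10 had log2 fold changes of 2.95 ± 0.88 against control (adjusted p = 0.0262) and 2.62 ± 0.79 against asymptomatic (adjusted p = 0.0226). The call against control ended without control 1, 2 or 4 (adjusted p = 0.0622, 0.0754 and 0.0776), that against asymptomatic without asymptomatic 1 (adjusted p = 0.0517), and without AIH 1, 2, 3 or 5 Il10 fell below the count filter. Il22ra1, the IL-22 receptor of hepatocytes, ranged over 1.21 to 5.71 CPM in AIH, 1.36 to 10.9 CPM in asymptomatic and 2.56 to 12.2 CPM in control livers. Il22, Il20 and Il24 had no count.

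Of the IL-6 and IL-12 family, 1 of 5 tested members rose in each AIH comparison, Il27ra, a receptor that restrains T cells, a share near that of all genes (15.6% against control and 19.1% against asymptomatic). Il27ra had 6.09, 4.32, 2.39, 5.31 and 3.68 CPM in AIH livers, 1.1, 1.23, 1.32, 1.36 and 2.06 CPM in asymptomatic livers and 1.46, 1.47, 2.12 and 1.23 CPM in control livers. The AIH range began just above that of the others. Il27ra had log2 fold changes of 1.47 ± 0.30 against control (adjusted p = 0.00322) and 1.62 ± 0.28 against asymptomatic (adjusted p = 0.000764). Il6st, the chain that carries the signal of IL-6 and its relatives, had 245, 173, 187, 318 and 317 CPM in AIH livers, 279, 260.3, 175, 384 and 510.1 CPM in asymptomatic livers and 299.7, 324, 242 and 243 CPM in control livers. The groups overlapped and asymptomatic 5 was highest. Il6st had log2 fold changes of −0.16 ± 0.28 against control (adjusted p = 0.729) and −0.37 ± 0.26 against asymptomatic (adjusted p = 0.302). Il6ra, the IL-6 binding chain, ranged over 35.6 to 189.6 CPM in AIH, 43.5 to 122 CPM in asymptomatic and 64.5 to 148 CPM in control livers, with 0.09 ± 0.43 against control (adjusted p = 0.907) and 0.08 ± 0.40 against asymptomatic (adjusted p = 0.899). Il6 itself was scarce, with 5, 15, 6, 0 and 9 counts in AIH livers, 1, 2, 1, 2 and 2 in asymptomatic livers and 1, 0, 0 and 0 in control livers. AIH 2 held the most, AIH 4 none, and control a single count. The pooled ratio of AIH to asymptomatic counts of Il6 was 3.58 (95% interval 1.63 to 8.93), and 2.6 without AIH 2. Il12b, the shared subunit of IL-12 and IL-23, had 3, 24, 1, 7 and 18 counts in AIH livers, 1, 1, 1, 0 and 0 in asymptomatic livers and 0, 0, 1 and 1 in control livers. AIH 2 and AIH 5 held most of them, and the pooled ratio of AIH to control counts was 19.6 (95% interval 5.15 to 166), or 13.6 without AIH 2. Il27, a ligand of Il27ra, had 1, 16, 7, 1 and 10 counts in AIH livers, 2, 0, 3, 0 and 0 in asymptomatic livers and 1, 1, 6 and 0 in control livers. AIH 2, 3 and 5 held most of its counts.

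Outside these families, Il16, a chemoattractant for CD4 cells, had 25.3, 20.1, 18.9, 28.2 and 19.5 CPM in AIH livers, 6.5, 6.41, 6.96, 4.26 and 4.85 CPM in asymptomatic livers and 5.72, 6.04, 8.38 and 4.52 CPM in control livers. Among all members it had the smallest p-values in both AIH comparisons, and AIH livers lay well above all others. Il16 had log2 fold changes of 1.86 ± 0.22 against control (adjusted p = 4.98e-05) and 1.95 ± 0.20 against asymptomatic (adjusted p = 1.21e-05). Its exons share 1202 bases with Stard5 on the opposite strand, and with no stated strand setting it is not known how reads there were counted. Il34, a second ligand of the macrophage receptor Csf1r, had 7.62, 5.97, 6.52, 2.46 and 3.68 CPM in AIH livers, 1.88, 3.23, 1.57, 2.65 and 3.59 CPM in asymptomatic livers and 1.81, 1.81, 1.25 and 2.01 CPM in control livers. AIH livers lay above all controls and overlapped with asymptomatic livers. Il34 had log2 fold changes of 1.61 ± 0.35 against control (adjusted p = 0.00467) and 1.02 ± 0.32 against asymptomatic (adjusted p = 0.026). The call against asymptomatic ended without AIH 1, 2 or 3 or asymptomatic 1, 3 or 4 (adjusted p from 0.0509 to 0.0706). Il3ra, the IL-3 receptor chain of basophils and plasmacytoid dendritic cells, had 4.12, 10.6, 5.47, 2.68 and 3.88 CPM in AIH livers, 1.95, 1.29, 2.13, 1.16 and 1.66 CPM in asymptomatic livers and 1.69, 0.847, 1.69 and 1.95 CPM in control livers. AIH livers lay above all others, AIH 2 highest. Il3ra had log2 fold changes of 1.79 ± 0.39 against control (adjusted p = 0.00469) and 1.7 ± 0.36 against asymptomatic (adjusted p = 0.00292). Il4i1, an amino acid oxidase of myeloid and B cells, had 4.41, 5.1, 0.873, 12.2 and 5.15 CPM in AIH livers, 0.52, 1.23, 1.07, 0.517 and 0.332 CPM in asymptomatic livers and 0.701, 0.565, 1.14 and 1.116 CPM in control livers. AIH 4 was highest and AIH 3 lay within the range of the other groups. Il4i1 had log2 fold changes of 2.64 ± 0.59 against control (adjusted p = 0.00551) and 2.9 ± 0.56 against asymptomatic (adjusted p = 0.00149). Its exons share 3423 bases with Tbc1d17 on the opposite strand.

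IL-17, a cytokine of T helper and gamma delta T cells, was at the limit of detection. Il17a, Il17b, Il17f and Il25 had no count in any liver, Il17c had 1 and Il17d had 12 in all. With no count in a group, the floor of 3 counts stands at 0.0311 CPM in AIH, 0.038 CPM in asymptomatic and 0.0422 CPM in control livers, for counting error only. Its receptor chains were measured in every liver. Il17ra, the chain common to the family and chosen after its values were seen, ranged over 24.9 to 49.7 CPM in AIH, 17.9 to 52.8 CPM in asymptomatic and 16.5 to 21.2 CPM in control livers, and rose against control (0.90 ± 0.29, adjusted p = 0.0415) but not against asymptomatic (0.25 ± 0.27, adjusted p = 0.521). The call against control ended without AIH 1, 2, 3 or 5 or any 1 control (adjusted p from 0.0505 to 0.123). Il17rc, its partner for IL-17A and IL-17F, had 15, 15.1, 15, 19.8 and 16.9 CPM in AIH livers, 20.3, 13.5, 20.3, 18.4 and 20.6 CPM in asymptomatic livers and 21.8, 20.5, 23 and 20.4 CPM in control livers. It lay lower in every AIH liver than in every control liver yet just outside the threshold, at −0.39 ± 0.15 (adjusted p = 0.073), and at −0.18 ± 0.14 against asymptomatic (adjusted p = 0.335). DESeq2 and limma-voom called it against control, at −0.4 (adjusted p = 0.0398) and −0.39 (adjusted p = 0.0326). Without AIH 4 it passed against control, at −0.46 (adjusted p = 0.0392). Il17rb and Il17rd passed neither AIH test, though Il17rd passed against asymptomatic in DESeq2 (adjusted p = 0.045) and in limma-voom (adjusted p = 0.00247), against control in limma-voom (adjusted p = 0.0205), against asymptomatic without AIH 2, at 1.2 (adjusted p = 0.0448), and without asymptomatic 2, at 1.63 (adjusted p = 0.00208). Neither test was passed by Il11ra1, a receptor chain for IL-11, which ranged over 10.9 to 19.2 CPM in AIH, 9.11 to 20.5 CPM in asymptomatic and 10.05 to 18.6 CPM in control livers.

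Of the 21 members with counts too few to test, several had most of their counts in AIH livers. Because they were read after their values were seen, they are a description. Il1rl1, the IL-33 receptor, had 7, 39, 107, 2 and 31 counts in AIH livers, 0, 3, 0, 1 and 0 in asymptomatic livers and 0, 3, 1 and 3 in control livers. Il5ra, the IL-5 receptor chain of eosinophils, had 14, 2, 40, 13 and 7 counts in AIH livers, 2, 0, 0, 0 and 2 in asymptomatic livers and 3, 1, 1 and 0 in control livers. AIH 3 held the most of each, and the pooled ratio of AIH to control counts was 19.6 (95% interval 9.33 to 49.4) for Il1rl1 and 11.2 (95% interval 4.6 to 35.5) for Il5ra, or 10.1 and 6.47 without AIH 3. Il1f9, an IL-36 ligand (IL-36 gamma), had 15, 38, 9, 2 and 17 counts in AIH livers, 2, 0, 3, 3 and 1 in asymptomatic livers and 1, 0, 6 and 0 in control livers. Il23r, the IL-23 receptor, had 18, 1, 0, 4 and 1 counts in AIH livers, 1, 0, 0, 0 and 0 in asymptomatic livers and 0, 0, 0 and 0 in control livers, mostly in AIH 1. Il12a, the IL-12 p35 subunit, had 11, 3, 2, 1 and 2 counts in AIH livers, 0, 1, 1, 0 and 1 in asymptomatic livers and 0, 0, 0 and 0 in control livers, again mostly in AIH 1. Without the count filter Il1rl1, Il5ra, Il12b, Il1f9 and Il21 were called higher in both AIH comparisons, Il6, Il12a and Il23r also against control, and Il31ra against asymptomatic. At the other end Il11, Il19, Il20ra, Il22ra2 and Il23a held between 4 and 15 counts over all livers, and Il12rb2, Il17re and Il31ra between 14 and 94. The 19 members with no count were Il11ra2, Il13, Il17a, Il17b, Il17f, Il1f10, Il1f5, Il1f6, Il1f8, Il1rapl1, Il1rapl2, Il20, Il22, Il24, Il25, Il3, Il31, Il5 and Il9.

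**Figure D4:**
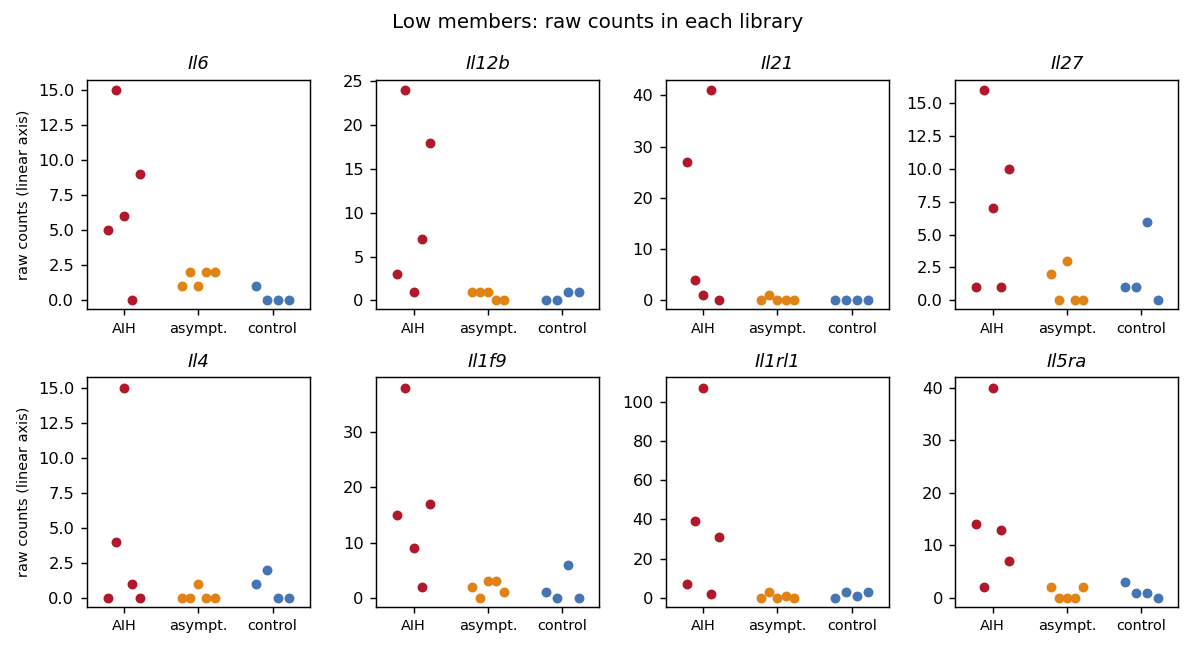
Raw counts per liver (y axis) of ligands and receptors that were too low to test, 1 point per animal in AIH, asymptomatic and control. Counts of Il21 sit mostly in AIH 1 and AIH 4, those of Il12b mostly in AIH 2 and AIH 5, and those of Il1rl1 mostly in AIH 3.

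The 5 AIH livers were not alike in which members they raised most. Of the 28 members called higher in either AIH comparison, AIH 2 was the highest AIH liver for 9 (Il10, Il10ra, Il10rb, Il13ra2, Il18bp, Il1b, Il1rn, Il2rg and Il3ra) and AIH 4 for 8 (Il16, Il18r1, Il21r, Il2ra, Il33, Il4i1, Il7r and Il9r). AIH 1 was highest for 4 (Il1r2, Il27ra, Il2rb and Il34), AIH 3 for 4 (Il17ra, Il18rap, Il1rl2 and Il4ra) and AIH 5 for 3 (Il15, Il1a and Il7). AIH 4 was also the lowest of the AIH livers for 11 of the 28 and AIH 3 for 8. Summed levels of marker lists differed between the same livers. T cell markers summed to 101, 50.1, 21, 75.7 and 16.6 CPM in AIH 1 to 5, against 3.68 to 7.35 in asymptomatic and 2.75 to 8.71 in control livers. B cell markers summed to 147, 65.6, 28.8, 187 and 26 CPM in AIH, against 2.84 to 18.2 in asymptomatic and 3.86 to 6.75 in control livers. Both lists were highest in AIH 1 and AIH 4, where Il21, Il9r and Il2rb were also highest. Il21 was too low to test, and Il9r passed the filter only through AIH. Other gamma chain family receptors did not all follow, as Il2rg was highest in AIH 2 and Il4ra in AIH 3. Il7r and Il2ra were highest in AIH 4, but next highest in AIH 3 and AIH 2. Neutrophil markers summed to 323, 1265, 1174, 23 and 101 CPM in AIH, against 2.47 to 9.82 in asymptomatic and 1.75 to 5.33 in control livers, and were lowest in AIH 4. Monocyte and macrophage markers summed to 1073, 2231, 1289, 973 and 1349.6 CPM in AIH, against 255 to 328 in asymptomatic and 226 to 443 in control livers. They peaked in AIH 2, as did Il1b and Il10ra. Stellate cell markers, of which 4 of 6 rose against asymptomatic and 3 of 6 against control, summed to 386, 206, 604, 371 and 286 CPM in AIH, against 85 to 216 in asymptomatic and 134 to 207 in control livers. Hepatocyte markers summed to 89387 to 164519.9 CPM in AIH, 123572 to 148329 in asymptomatic and 116929 to 157894 in control livers. The part of cell numbers in the member results was not tested.

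The comparison of asymptomatic with control livers asks what the deletion goes with in the absence of symptoms. Sex differs here too, with 5 males in the asymptomatic group and 2 females and 2 males among controls. By edgeR's quasi-likelihood test 0 of 42 tested members were called, with 5 at an unadjusted p under 0.05, and DESeq2 called 0. The limma-voom fit with quality weights called 1, where it called 8.87% of all genes, Il12rb1, a chain of the IL-12 and IL-23 receptors. Il12rb1 had 2.49, 1.55, 1.86, 1.9 and 0.555 CPM in AIH livers, 5.52, 1.41, 1.5, 4.2 and 3.32 CPM in asymptomatic livers and 2.16, 0.847, 0.544 and 1.06 CPM in control livers. Asymptomatic 1, 4 and 5 lay above every other liver, and its log2 fold change was 1.46 ± 0.52 in edgeR (adjusted p = 0.42) and 1.81 in limma-voom (adjusted p = 0.0366). Il1r1 had the largest difference in means among abundant members, 137 ± 142 CPM in asymptomatic livers (SD, n = 5) and 28.9 ± 13.7 CPM in control livers (SD, n = 4), at 2.25 ± 0.78 (adjusted p = 0.42). That spread came from asymptomatic 4 and 5, in which Il13ra1, Il17ra and Il6st were also the highest of their group. Members together took 0.115% and 0.139% of counts there, against 0.0663% to 0.0816% in the other asymptomatic livers. Il7 and Il13ra2 completed the 4 members with the smallest p, at −2.12 ± 0.86 (adjusted p = 0.435) and 2.39 ± 1.02 (adjusted p = 0.444). No member separated the groups without overlap, where 1.26% of all genes did so higher and 1.15% lower.

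**Figure D5:**
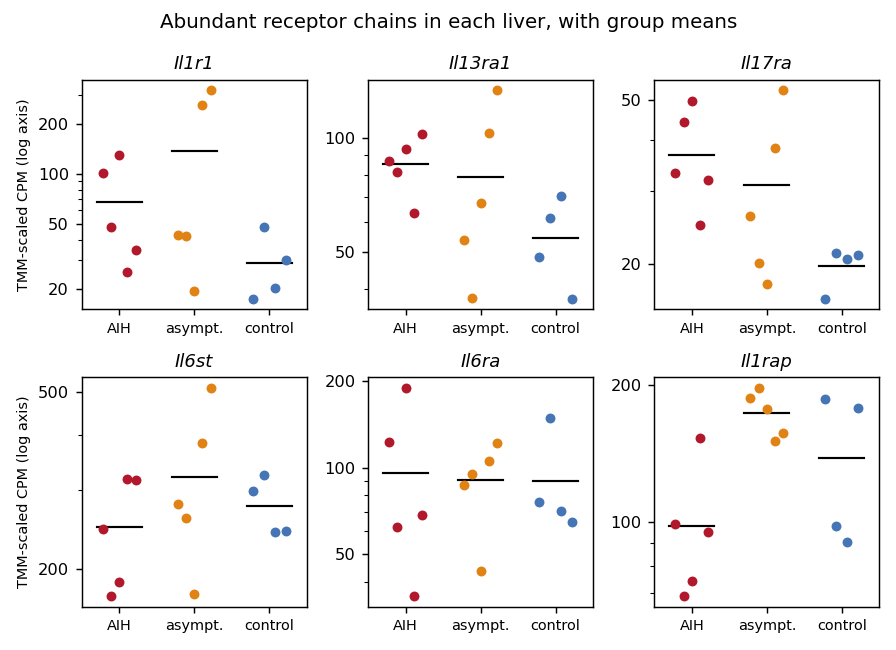
TMM-scaled CPM (y axis, log scale) of abundant receptor chains in each liver, 1 point per animal with the group mean as a line. Asymptomatic 4 and 5 hold the highest values of their group for Il1r1, Il13ra1, Il17ra and Il6st, and Il1rap is lower in most AIH livers than in asymptomatic livers.

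Ligand and antagonist, or chain and chain, were also set against each other within each library as a log2 ratio of counts, which does not depend on library scaling. Of 15 two-sided exact permutation tests, none passed after Benjamini-Hochberg adjustment over the 15, and the smallest p the design allows is 0.00794. Over 15 tests, 1 ratio alone at that p cannot pass, so the lack of calls does not show that the ratios were alike. Il15 to Il15ra averaged −2.55 ± 0.84 in AIH and −5.06 ± 0.71 in asymptomatic livers (SD), a difference of 2.51 (exact p = 0.00794, adjusted p = 0.0794). All AIH livers lay above all asymptomatic livers in that ratio, and that p is the smallest possible. Il18bp to Il18 averaged 2.19 ± 0.56 in AIH and 0.95 ± 0.41 in asymptomatic livers (SD), a difference of 1.25 (exact p = 0.0159, adjusted p = 0.0794). Decoy to signalling IL-1 receptor, Il1r2 to Il1r1, averaged −4.21 ± 2.31 in AIH and −9.43 ± 1.17 in asymptomatic livers (SD), a difference of 5.21 (exact p = 0.0159, adjusted p = 0.0794). The antagonist ratio Il1rn to Il1b averaged −0.76 ± 1.32 in AIH and 0.69 ± 0.94 in asymptomatic livers (SD), a difference of −1.46 (exact p = 0.0556, adjusted p = 0.139), lower in AIH. Against control, AIH differed by 1.35 for Il15 to Il15ra (adjusted p = 0.139) and 0.81 for Il18bp to Il18 (adjusted p = 0.193). The difference was 4.31 for Il1r2 to Il1r1 (adjusted p = 0.119) and −1.47 for Il1rn to Il1b (adjusted p = 0.198). AIH and control livers overlapped in each of these ratios.

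Genes of the same pathways without an Il symbol were counted beside the members. Of 16 partner ligands and receptor chains, 12 were tested. Against asymptomatic 6 of them rose and 1 fell, where 19.1% of all genes rose and 10.7% fell. Against control 6 rose, where 15.6% of all genes rose and 6.08% fell. The risers were Ebi3, the second subunit of IL-27, Csf2rb, Csf2rb2 and Csf2ra, chains of the IL-3, IL-5 and GM-CSF receptors, Clcf1, a gp130 ligand, and Ifnlr1, the interferon lambda receptor that pairs with Il10rb. Ifnlr1 had a log2 fold change of 3.12 against control (adjusted p = 0.00146) and 3.5 against asymptomatic (adjusted p = 0.000341). It had 0.931 to 2.12 CPM in AIH, 0.0646 to 0.235 CPM in asymptomatic and 0 to 0.447 CPM in control livers. Being so low outside AIH, it passed the count filter only through the AIH libraries, so its place in the count of risers supports nothing. Lifr, the leukaemia inhibitory factor receptor, fell against asymptomatic, at −1.05 (adjusted p = 0.0488). Of 12 signal relay genes, 3 rose and 2 fell against asymptomatic and 2 rose against control, where 29.8% and 21.7% of all genes were called in either direction. Jak3, the kinase bound to Il2rg, rose by 0.86 against control (adjusted p = 0.00642) and 1.21 against asymptomatic (adjusted p = 0.000294). Irak3, an inhibitor of IL-1 receptor signalling, rose by 2.5 against control (adjusted p = 0.000322) and 2.89 against asymptomatic (adjusted p = 4.31e-05). Jak2 also rose, and Irak1 and Irak2 fell, against asymptomatic. Of 16 liver genes known to be induced through IL-6, 9 rose against asymptomatic and 8 against control, where 19.1% and 15.6% of all genes rose. Which cells held the RNA of these genes was not measured. Among the risers was Saa1, an acute-phase protein, at 4.31 against control (adjusted p = 0.00489), though AIH 4 (66.9 CPM) lay below control 3 (101 CPM). Fga, Fgb, Fgg, Socs3, Hamp, Itih4 and Steap4 were called in neither comparison, and Lbp only against asymptomatic. Most of the summed level of the 16 came from Hp, Hpx, Fga, Fgb and Fgg. That level was 47712, 45194, 77413, 27445 and 34623 CPM in AIH livers, 22733, 20607, 24962, 39564 and 43944 CPM in asymptomatic livers and 16770.1, 32674, 21768 and 21423 CPM in control livers. AIH 3 was highest, and asymptomatic 4 and 5, where Il1r1 was high, stood above the other asymptomatic livers.

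With sex as a term, 15 of the 28 members called between AIH and asymptomatic livers passed the threshold, while over all genes 1372 were called, against 4355 without the term. Of the 13 lost, some kept most of their size. The log2 change was 1.46 for Il1rl2, 1.53 for Il3ra, 0.52 for Il4ra, 0.70 for Il34 and 0.64 for Il1a, each fold within 1.5 times of that without the term. For the other 8 the fold moved further. The log2 change was 0.12 for Il1rn, −0.14 for Il1rap, 0.59 for Il15 and 0.67 for Il10. It was 1.18 for Il18bp, 1.85 for Il7, 1.93 for Il18rap and 2.44 for Il1b. Against control 20 passed, with Il10, Il13ra2, Il17ra, Il1rl2 and Il4ra lost and Il15ra gained, at −0.71 (adjusted p = 0.00951). Other tools also ended calls against control. In limma-voom Il10, Il13ra2, Il17ra, Il1r2, Il1rl2 and Il4ra did not pass (adjusted p from 0.0525 to 0.248), and Il7 did, at 2.09 (adjusted p = 0.0383), while against asymptomatic Il1rl2 did not (adjusted p = 0.0516). Without the count filter Il17ra, Il18r1, Il1rl2 and Il4ra did not pass against control, nor did Il4ra against asymptomatic, and in fits of only the 2 groups compared Il13ra2, Il1rl2 and Il4ra did not pass against control, nor did Il34 against asymptomatic (adjusted p = 0.0502).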

How the data were processed

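Liver RNA of 14 mice was measured, 1 library per animal (AIH 5, asymptomatic 5, control 4). The authors deposited raw counts for 51912 Ensembl gene rows plus 5 HTSeq summary rows, which were set aside. Unaligned reads made up 3.23% to 9.27% of a file. Per the submitters' processing notes, the tools include HISAT2 2.1.0, HTSeq 0.9.0, cutadapt 1.12 and FastQC 0.11.5, and the builds are GRCh38 and GRCm38, of which the mouse one matches the gene IDs. Annotation release, strand setting and layout are not given in the sources used here. How reads in exon bases shared by 2 genes were counted is therefore not known. Reads that HTSeq held ambiguous between genes were among the rows set aside. They made up 1.76% to 3.05% of a file in AIH, 1.38% to 1.61% in asymptomatic and 1.44% to 1.94% in control. The members that share the most exon bases with another gene are Il4i1, Il12rb2, Il16, Il2rg, Il4ra, Il10rb and Il1rap. For Il2rg and Il10rb the other gene lies on the same strand, so a strand setting would not separate them, and Il11ra1 and Il11ra2 are near-identical copies.

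Symbols and exon lengths came from GENCODE M21 (GRCm38), which held 51633 of the IDs and all 82 members. After filterByExpr, 14638 genes were scaled by TMM and compared between groups with the two-sided quasi-likelihood F-test of edgeR 4.0.16 under R 4.3.3. All libraries entered a single fit, each group with its own mean. P-values were Benjamini-Hochberg adjusted over every gene tested (threshold 0.05), and standard errors come from the F statistic. CPM are TMM-scaled, and RPKM are CPM per kilobase of exon. Log2 ratios added 0.5 to each count. The fit was tested on simulated data. Counting intervals and floors hold no animal-to-animal error.

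The members and lists were chosen with earlier results of these data known. Values in every library are given for 40 members. These are the 16 and 10 tested members with the smallest p in AIH against control and against asymptomatic, the 4 with the smallest p in asymptomatic against control, members called lower, the 5 with the highest RPKM, the pair beside the threshold, and a list of ligands and modulators. Others are named as chosen after their values were seen. Alternatives were RLE size factors, library totals, other count filters, DESeq2 1.42.0, limma-voom (limma 3.58.1), only the groups compared, a sex term, and leaving out single libraries. Fits within a sex were chosen after seeing the data. Promoters came from RefSeq, and matplotlib 3.10.9 drew the figures.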

Additional observations from a re-analysis of the deposited data

Results flagged for a closer look

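Among 96 groups of 4 or 5 livers, 10 held a member's value in 1 liver that stood apart from the rest of its group. A chance rate of about 1 in 20 groups would hold only for normally distributed values. The rate for CPM of low members was not measured, so no excess over chance is read from the 10. Il1b was 129 CPM in AIH 2, against 8.38 to 34.8 CPM in the other AIH livers, and 11.4 CPM in control 3, against 2.34 to 3.45 CPM in the other controls. Il7 was 5.40 CPM in AIH 5, against 1.11 to 1.94 CPM in the other AIH livers. Il4ra was 81.4 CPM in AIH 3, against 51.4 to 56.7 CPM, and 51.4 CPM in asymptomatic 2, against 33.9 to 37.3 CPM in its group. Asymptomatic 2 also stood high for Il21r, at 2.0 CPM, against 0.188 to 0.452 CPM, and for Il9r, at 0.705 CPM, against 0 to 0.0650 CPM. Asymptomatic 1 stood low for Il1rn, at 1.36 CPM, against 5.02 to 6.23 CPM, and for Il2rg, at 0.910 CPM, against 2.0 to 2.26 CPM. Il27ra was 2.06 CPM in asymptomatic 5, against 1.10 to 1.36 CPM in the other asymptomatic livers. What set these livers apart was not tested.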

How the results depend on the processing

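No paired analysis was possible because the labels number no replicates, and the numbers used here follow accession order only. The count of members called between AIH and control (24) ran from 21 to 28 under the other scalings, filters and tools and with only the groups compared. It was 20 with sex as a term, 17 to 24 with 1 library left out, and 6 in females only, where 2 controls remain. Calls over all genes moved too, from 3174 to 2490 with sex as a term and 839 in females only. With 1 library left out they ran from 2350 to 3425. Between AIH and asymptomatic (28) it ran from 24 to 33, from 21 to 29 with 1 library left out, and was 15 with sex as a term and 16 in males only, where 1 AIH liver remains and is assumed to vary like the others. Between asymptomatic and control (0) the member count was 1 in limma-voom and 0 in the other fits. Over all genes, the main edgeR fit called 0, DESeq2 118 and limma-voom 1299. Scaling by library totals only moved the median log2 change of all genes to 0.14 against control and 0.17 against asymptomatic. Against asymptomatic, Il13ra1 (0.11) turned to −0.36 with sex as a term and −0.33 in males only, and ran from −0.065 to 0.38 with 1 library left out. Il13ra2 (0.74) turned to −1.34 in limma-voom, −1.76 with sex as a term and −1.42 in males only, and ran from −0.089 to 1.23 with 1 library left out. Il17rc (−0.18) turned to 0.018 with library totals and 0.080 in males only, and Il34 (1.02) to −0.084 in males only. Against control, Il6st (−0.16) turned to 0.000558 with library totals. With 1 library left out, the Il6st to Il6ra ratio ran from −0.53 to 0.26 for AIH against control, −0.65 to 0.15 for AIH against asymptomatic and −0.075 to 0.21 for asymptomatic against control, and Il1rn to Il1b from −0.39 to 0.46 for the last. The cause was not tested. Members under a few counts per library are limited by depth.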
